A study of Mus musculus with 12 samples.

Results

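The cytosolic sulfotransferases Sult1a1, Sult1b1, Sult1c2, Sult1d1, Sult1e1, Sult3a1 and Sult5a1 were followed in mouse liver, as every array probe that the platform annotation assigns to one of these 7 gene symbols. They have 10 probes and are 7 of the 19057 genes named on the array. The livers came from insulin-deficient mice of mixed strain background, so both groups lack insulin. In 6 samples leptin, a hormone of fat tissue, was given into a brain ventricle (icv) at 25 ng in 0.11 µL per hour, and livers were taken on day 10, while 6 samples received icv phosphate-buffered saline (PBS). The volume and day of the PBS samples, the sex and age of the mice, and the way insulin deficiency was produced are not given in the sources used here. One array was run per sample. No label says that each sample came from its own mouse, so the p-values cover only variation among the arrays, some of which may be technical.

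Sulfotransferases move a sulfonate group from the donor PAPS (3′-phosphoadenosine 5′-phosphosulfate) onto hydroxyl or amino groups of hormones, bile acids, neurotransmitters and drugs. The sulfated product is more soluble in water and in most cases inactive. Sult1e1 acts on estrogens, whose sulfates do not activate the estrogen receptor, and its transcript is known to be scarce in the liver of healthy mice and raised in diabetic mouse models such as db/db. The comparison asked which of these transcripts differ in an insulin-deficient liver when leptin acts in the brain.

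Intensities below are normalized, background-corrected log2 values, and each mean is over n = 6 arrays per group with its SD. Between 13381 and 14431 probes were detected on leptin arrays and between 13159 and 13954 on PBS arrays. Of 8819 genes tested with limma, 16.7% passed an adjusted p of 0.05, with 8.4% lower and 8.31% higher with leptin. Hepatocyte markers were bright, with a mean over 8 tested markers of 12.73 to 13.18 on leptin arrays and 12.89 to 13.43 on PBS arrays, although the Alb probe itself read only 6.27 ± 0.19 with leptin and 7.10 ± 0.66 with PBS. Alb was the only one of the 8 called, lower with leptin (adjusted p = 0.0374), beside 16.7% of all genes. It lost that call under 14 of 29 alternatives. In a fit over all 15062 kept probes, 1 of 2 kept probes of Ahsg, another of the 8, was called higher. One array of each group, leptin 4 and PBS 3, recurs below at the edge of its group.

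Of the 7 sulfotransferases, 5 were bright enough to be tested. Of these, 2 fell with leptin, Sult1e1 and Sult1a1, against 8.4% of all genes tested. Sult1e1 was detected on 2 leptin and 6 PBS arrays, so it entered the test through the PBS group. The members were also chosen with earlier results of these data known, so no result is read from the count. The groups overlapped for all 5, while 7.28% of all genes tested had groups that did not overlap. None rose, and Sult1c2, Sult1d1 and Sult5a1 did not pass. The median log2 difference over the 5 was -0.35, beside 0.0039 over all genes tested. Sult1b1 and Sult3a1 were detected on no array.

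The genes Sult1b1, Sult1d1 and Sult1e1 are neighbours among the coding genes of mouse chromosome 5 in RefSeq's GRCm38.p6 table. Within this cluster Sult1e1 fell, Sult1d1 did not pass and Sult1b1 was not detected. Sult1c2 stands beside Sult1c1 on chromosome 17, and Sult1c1 was detected on no array either.

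The 250 bases before the start site are shown for Sult1e1 and Sult1a1, which fell, and for Sult1c2, which lay the other way, from RefSeq's GRCm38.p6 promoter table. They lie at chr5:87591612-87591861, chr7:126676419-126676668 and chr17:53845959-53846208, all on the minus strand. They are written along the gene, with matches to the motifs searched in capitals.
Sult1e1: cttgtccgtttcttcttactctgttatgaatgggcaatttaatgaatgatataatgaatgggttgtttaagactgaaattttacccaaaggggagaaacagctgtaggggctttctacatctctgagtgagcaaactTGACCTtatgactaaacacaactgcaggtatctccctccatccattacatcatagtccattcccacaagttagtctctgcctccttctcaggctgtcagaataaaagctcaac
Sult1a1: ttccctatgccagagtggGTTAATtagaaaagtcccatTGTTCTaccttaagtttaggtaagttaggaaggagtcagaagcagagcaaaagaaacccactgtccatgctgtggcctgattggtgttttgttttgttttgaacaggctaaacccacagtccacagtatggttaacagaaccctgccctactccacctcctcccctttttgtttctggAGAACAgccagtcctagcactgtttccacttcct
Sult1c2: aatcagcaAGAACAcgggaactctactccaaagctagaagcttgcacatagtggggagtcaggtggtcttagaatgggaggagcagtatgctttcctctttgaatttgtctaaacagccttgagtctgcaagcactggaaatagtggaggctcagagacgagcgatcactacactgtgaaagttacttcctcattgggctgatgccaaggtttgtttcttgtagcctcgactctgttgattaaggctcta

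The motifs were searched on both strands in all 32851 windows of that length. Sult1e1 holds 1 nuclear receptor half-site (AGGTCA, on the reverse strand, bases -113 to -108 before the start), which 14% of all windows hold. Sult1a1 holds 1 HNF1 half-site (GTTAAT, bases -232 to -227), present in 6.43% of windows, and glucocorticoid receptor half-sites (TGTTCT) at bases -212 to -207 and, reversed, -34 to -29, a motif present in 16.1% of windows. Sult1c2 holds TGTTCT reversed at bases -242 to -237. None of the matches overlap. No E-box (CACGTG, 6.02% of windows), D-box (TTATGTAA, 0.819%), TATA box (TATAAA, 12.4%), STAT5 site (TTCNNNGAA, 7.02%) or C/EBP site (TTGCGCAA, 0.164%) was found in these 3 windows. These matches describe the letters only.

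Sult1e1, the estrogen sulfotransferase, had the greatest difference of the 5. Its normalized intensity was 5.84, 4.33, 4.32, 7.56, 4.80 and 4.38 on leptin arrays 1 to 6, against 8.27, 6.93, 6.38, 8.25, 7.31 and 7.29 on PBS arrays 1 to 6. In the deposited, uncorrected signal these were 155.9, 109, 108.7, 287.3, 125.5 and 111.9 with leptin, against 406.1, 220.8, 181.5, 403.6, 257.4 and 254.9 with PBS, where the median of all probes was 118.9. Leptin 2, 3, 5 and 6 therefore sat at the level of probes that are not detected, and only leptin 1 and leptin 4 passed detection, whereas all 6 PBS arrays did. The groups overlapped through leptin 4 alone, which was above 4 of the 6 PBS arrays.

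The Sult1e1 mean was 5.21 ± 1.29 with leptin and 7.41 ± 0.74 with PBS, a log2 difference of -2.20 ± 0.52 (SE; limma, adjusted p = 0.0133), or 4.59-fold on this scale. With 4 of 6 leptin arrays not above background, that fold is set in part by the background floor. Its 95% confidence interval ran from -3.32 to -1.07. An exact two-sided permutation test on this probe gave p = 0.013, where the smallest possible p is 0.00216. The size depends on how background is handled: on the deposited signals the fold was 1.97 (log2 difference -0.98, adjusted p = 0.0273). The authors' deposited table gives the same log2 difference of -0.98, calls the probe down and ranks it 759 of 45281. In bulk liver, fewer cells with the transcript and less of it per cell cannot be told apart.

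Some clock gene transcripts moved with the groups. Of 8 tested genes on the positive side of a clock list, Dbp, Per1 and Nr1d2 rose with leptin and 5 did not pass. Both tested opposing genes, Arntl and Clock, fell, where 8.31% of all genes rose and 8.4% fell. Arntl was detected on 0 leptin and 5 PBS arrays, so it entered the test, and the score below, through the PBS group. A clock score, the mean of the 8 minus the mean of the pair after each gene was centred on its own mean over the 12 arrays, ran from -0.356 to 1.67 on leptin arrays and from -1.65 to 0.707 on PBS arrays. Leptin 4 had the lowest score of its group and the highest Sult1e1, and PBS 3 had the highest score of its group and the lowest Sult1e1. Once the score was added to the model, the Sult1e1 difference was -0.25 ± 0.68 (SE, adjusted p = 0.865), and Sult1a1 stood at -0.22 ± 0.27 (adjusted p = 0.665). Scores of the groups hardly overlap, so group and score cannot be told apart well in that model, and the part of the clock genes was not tested further.

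Sult1a1, which sulfates phenols and is a main sulfotransferase of liver, was bright on all 12 arrays. Its intensity was 13.40, 12.86, 13.27, 13.96, 13.81 and 12.86 on leptin arrays 1 to 6, against 14.44, 14.19, 13.92, 14.37, 14.24 and 14.09 on PBS arrays 1 to 6. All leptin arrays were below all PBS arrays except leptin 4, which was just above PBS 3. Means were 13.36 ± 0.47 with leptin and 14.21 ± 0.19 with PBS, a log2 difference of -0.85 ± 0.19 (SE; limma, adjusted p = 0.0105), or 1.80-fold. The exact permutation p was 0.00433. The authors' deposited table has -0.84 and also calls it down.

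**Figure D1:**
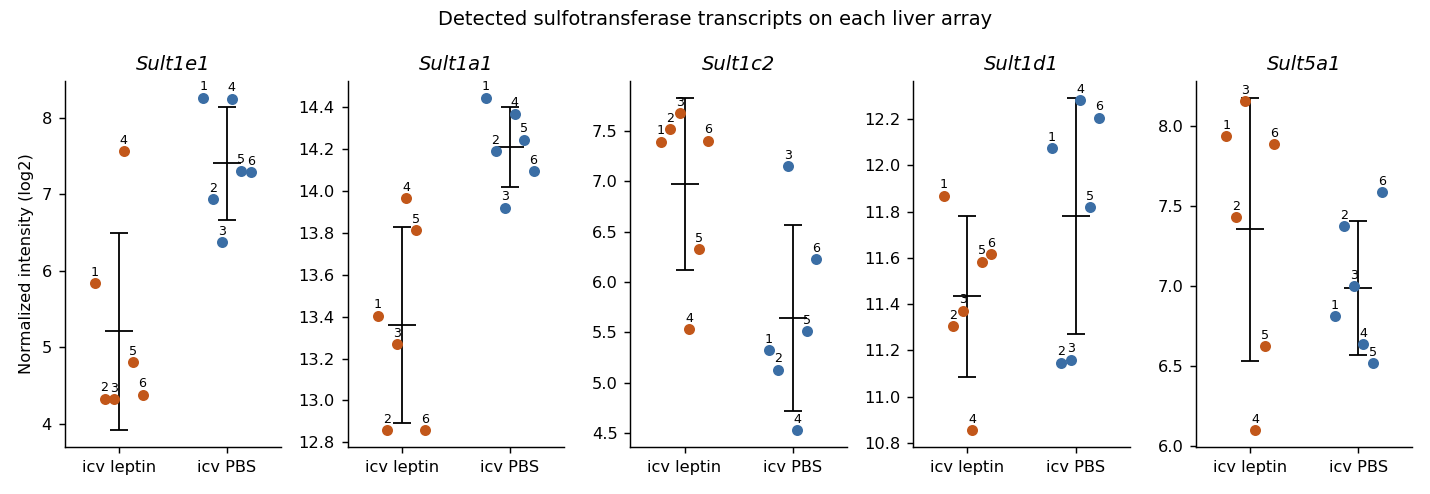
Normalized log2 intensity of the 5 tested sulfotransferases on each array, with icv leptin at left and icv PBS at right; numbers are array numbers within a group, and bars are the mean and SD of 6 arrays. Sult1e1 and Sult1a1 are lower with leptin apart from leptin 4, and Sult1c2 lies higher with leptin apart from leptin 4 and PBS 3.

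Sult1c2, of the 1C subfamily, lay in the opposite direction but did not pass. It was 7.39, 7.52, 7.68, 5.53, 6.33 and 7.40 on leptin arrays 1 to 6, against 5.32, 5.13, 7.15, 4.53, 5.51 and 6.23 on PBS arrays 1 to 6. It was detected on 6 leptin arrays and 3 PBS arrays, and the overlap came from a low value of leptin 4 and a high value of PBS 3. The means were 6.98 ± 0.85 with leptin and 5.64 ± 0.92 with PBS, a log2 difference of 1.33 ± 0.44 (SE; limma, adjusted p = 0.0546), with a 95% interval from 0.38 to 2.29. The exact permutation p, which is not adjusted, was 0.026. In the fit Sult1c2 had an unadjusted p under 0.05, as did 32.2% of all genes tested.

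Sult1c2 passed under 7 of 29 alternatives, among them cyclic loess (adjusted p = 0.049) and array weights (adjusted p = 0.0167) with all arrays kept. Without leptin 4 the Sult1c2 difference was 1.62 (adjusted p = 0.0167), without PBS 3 it was 1.63 (adjusted p = 0.0168), and without both it was 1.92 (adjusted p = 0.00218). These fits are among the 7. Leptin 4 holds the lowest leptin value and PBS 3 the highest PBS value of Sult1c2, so leaving them out had to widen the difference. No result is read from these exclusions. In the model with the clock score its sign turned, to -0.65 ± 0.44 (adjusted p = 0.394). The authors' deposited table gives 0.60 for this probe and calls no change, although its p-values adjusted over the kept gene probes put it at 0.0418.

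Sult1d1, which sulfates dopamine and other catecholamines in the mouse, was bright in both groups. It was 11.87, 11.30, 11.37, 10.85, 11.58 and 11.62 on leptin arrays 1 to 6, against 12.08, 11.15, 11.16, 12.28, 11.82 and 12.21 on PBS arrays 1 to 6. The PBS arrays split, with PBS 2 and 3 among the low values and PBS 1, 4 and 6 above every leptin array. The log2 difference was -0.35 ± 0.23 (SE, adjusted p = 0.315), with a 95% interval from -0.84 to 0.14. A dim probe of Sult1d1, detected on 1 leptin array and 3 PBS arrays, stood at -0.25 ± 0.12 in the fit over all 15062 kept probes (adjusted p = 0.167). In that fit 18.1% of probes passed in either direction and 9.76% were lower with leptin. Of the 10 sulfotransferase probes 7 were kept, and 2 of these passed, both lower. The Sult1e1 probe, which is among the 2, was kept through the PBS group.

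Sult5a1 had probes of similar reading, both detected on all 12 arrays. The brighter was 7.94, 7.43, 8.16, 6.10, 6.63 and 7.89 on leptin arrays 1 to 6, against 6.81, 7.38, 7.002, 6.64, 6.52 and 7.59 on PBS arrays 1 to 6. Leptin 1, 3 and 6 were above every PBS array, whereas leptin 4 was below every one. The log2 difference was 0.37 ± 0.33 (SE, adjusted p = 0.471), with a 95% interval from -0.34 to 1.08, and the other probe gave 0.39 ± 0.34 in the probe fit (adjusted p = 0.452). In the model with the clock score the brighter value turned to -0.39 (adjusted p = 0.706).

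The remaining members gave no level above background. Sult1b1, which sulfates thyroid hormones, has 2 probes, whose deposited signals lay between 107.9 and 124.5 on the 12 arrays, with a lowest detection p-value of 0.0791. Sult3a1, which sulfates amines and is known to be higher in female than in male mouse liver, lay between 106.3 and 120.4, with a lowest detection p-value of 0.152. These signals surround the median of all probes, 118.9, so no fold is given for either gene. Absence of the transcripts cannot be told apart from a weak probe.

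**Figure D2:**
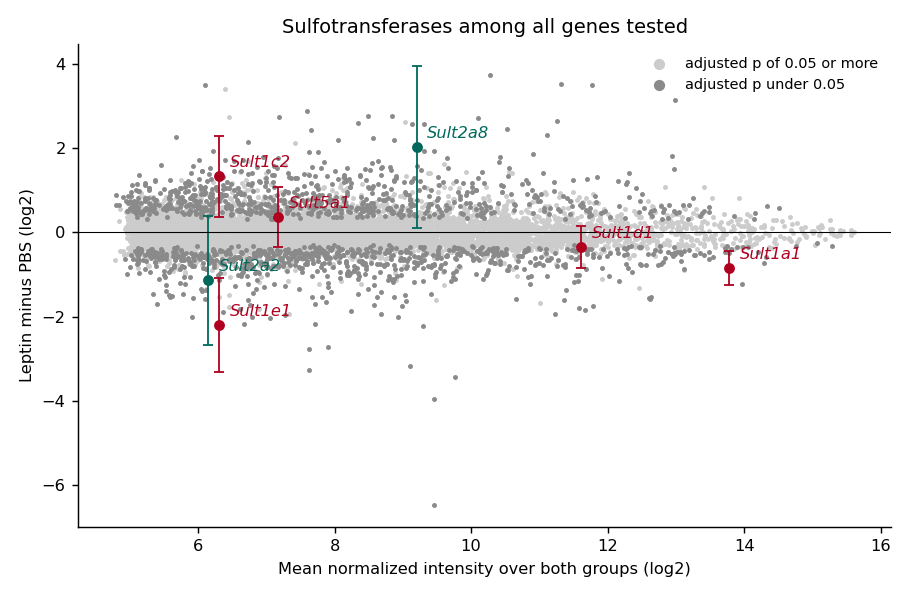
Log2 difference, leptin minus PBS, against mean normalized log2 intensity for all 8819 genes tested, with the 5 sulfotransferases in red and Sult2a2 and Sult2a8 in green; error bars are 95% confidence intervals. Sult1e1 is a dim gene with a difference of -2.20 and Sult1a1 a bright one with -0.85.

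The members were also compared array by array within each group, in 10 pairs of genes. Sult1e1 passed detection on only 2 of the 6 leptin arrays. Its r and rho with leptin below therefore rest largely on the order of values at background. The sign of r was the same in both groups for Sult1e1 with Sult1a1, Sult1c2 and Sult5a1 (-0.66 with leptin and -0.429 with PBS for the last), and opposite for Sult1e1 with Sult1d1 (-0.504 with leptin and 0.822 with PBS). Over the 6 leptin arrays Sult1e1 and Sult1a1 had Pearson r = 0.734 (exact permutation p = 0.0917) and Spearman rho = 0.754 (exact p = 0.106), and r was 0.369 without leptin 4 and leptin 2. Over the 6 PBS arrays r was 0.931 (exact p = 0.0125) and rho 0.943 (exact p = 0.0167), and r was 0.785 without PBS 3 and PBS 1. For Sult1e1 and Sult1c2, r was -0.783 with leptin (exact p = 0.0347, rho -0.943 with exact p = 0.0167) and -0.757 with PBS (exact p = 0.0722, rho -0.543 with exact p = 0.297). Without the pair of arrays farthest from the Sult1c2 median, r was -0.549 with leptin and -0.0907 with PBS, so the PBS relation rests on PBS 3 and PBS 4. Sult1a1 and Sult1c2 had r = -0.854 with leptin (exact p = 0.025, rho -0.812 with exact p = 0.0722) and -0.861 with PBS (exact p = 0.0278, rho -0.714 with exact p = 0.136), and -0.755 and -0.905 without the pair of arrays farthest from the Sult1a1 median. The highest r on leptin arrays was that of Sult1c2 with Sult5a1 (0.957, exact p = 0.0139, rho 0.771 with exact p = 0.103), which was 0.284 without leptin 4 and leptin 5, and 0.351 on PBS arrays (exact p = 0.508, rho 0.314 with exact p = 0.564). Of 20 such correlations among the 5 tested genes none passed adjustment, where the lowest adjusted p of the exact tests was 0.139 for Pearson's r and 0.167 for Spearman's rho.

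**Figure D3:**
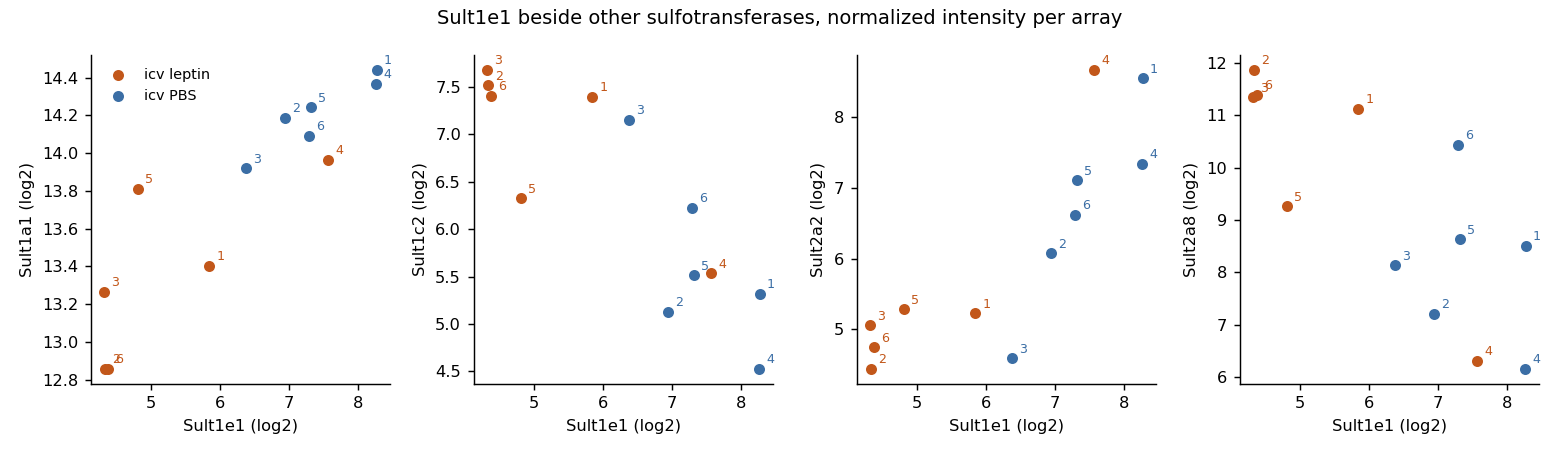
Normalized log2 intensity of Sult1a1, Sult1c2, Sult2a2 and Sult2a8 against that of Sult1e1 on each array, leptin in orange and PBS in blue, with array numbers. Leptin 4 lies with the PBS arrays in the panels of Sult1c2, Sult2a2 and Sult2a8.

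Beyond these members, 9 other cytosolic sulfotransferases are named on the array, and only Sult2a2 and Sult2a8 were bright enough to be tested. Neither passed, against 16.7% of all genes tested. Sult1c1, Sult2a1, Sult2a6, Sult2b1, Sult4a1 and Sult6b1 were detected on no array and Sult3a2 on 1 PBS array. Sult2a8, which sulfates bile acids in mouse liver, was 11.12, 11.88, 11.35, 6.31, 9.26 and 11.40 on leptin arrays 1 to 6, against 8.51, 7.21, 8.13, 6.16, 8.63 and 10.44 on PBS arrays 1 to 6. Leptin 1, 2, 3 and 6 were above every PBS array, and leptin 4 was among the lowest of the 12.

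The Sult2a8 log2 difference was 2.04 ± 0.89 (SE; limma, adjusted p = 0.132), with a 95% interval from 0.12 to 3.96. Without leptin 4 it was 2.82 and passed (adjusted p = 0.0116), but leptin 4 is the lowest leptin value, so its removal had to widen the difference. In the model with the clock score it was -0.48 (adjusted p = 0.871). Sult2a2, of the hydroxysteroid sulfotransferases known to be higher in female mouse liver, was 5.23, 4.44, 5.06, 8.67, 5.29 and 4.75 on leptin arrays 1 to 6, against 8.55, 6.08, 4.59, 7.34, 7.11 and 6.62 on PBS arrays 1 to 6. Leptin 4 had the highest value of all 12 arrays and PBS 3 the lowest of its group. The difference was -1.14 ± 0.71 (SE, adjusted p = 0.292), and -1.76 without leptin 4 (adjusted p = 0.0356), where removing the highest leptin value had to widen it. The Sult2a genes are similar in sequence, so a probe's reading is uncertain as to the family member.

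Of 7 tested genes of PAPS synthesis, transport and breakdown 0 were called, where 16.7% of all genes were, and the median was 0.10. Of 4 kept probes of Bpnt1, 1 was called lower in the probe fit. Papss2, the PAPS synthase isoform that predominates in liver, averaged 11.80 ± 0.42 with leptin and 11.79 ± 0.61 with PBS (difference 0.02 ± 0.27 SE, adjusted p = 0.971, 95% interval -0.56 to 0.60). The sign of this value changed when leptin 1 or 3, or PBS 1, 2 or 4, was left out. Its isoform Papss1 differed by 0.16 ± 0.21 (adjusted p = 0.641). Slc35b2, which carries PAPS into the Golgi, differed by 0.37 ± 0.13 (adjusted p = 0.0705), and passed without PBS 1 (0.45, adjusted p = 0.0246) and with array weights (0.41, adjusted p = 0.0334). Slc26a1, a sulfate transporter, differed by 0.10 ± 0.32 (adjusted p = 0.866), but passed with its sign turned in the model with the clock score (-1.28, adjusted p = 0.0387). Bpnt1 and Bpnt2, which break down the used donor, differed by -0.16 ± 0.11 and -0.23 ± 0.14 (adjusted p = 0.337 and 0.285).

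Genes that make sulfate from cysteine were read as a list, which was also chosen with earlier results of these data known, so no result is read from its count. The test called 4 of 9 members lower and 0 higher, where 8.4% of all genes were lower, and the median of the 9 was -0.52. Suox, the sulfite oxidase that makes the sulfate itself, was 8.24 ± 0.23 with leptin and 9.86 ± 0.24 with PBS, a log2 difference of -1.62 ± 0.14 (SE; limma, adjusted p = 2.2e-05). Cth, which releases cysteine from cystathionine, fell by 1.59 (SE 0.33, adjusted p = 0.00727), a call lost in the model with the clock score (-1.33, adjusted p = 0.18). Ethe1, a mitochondrial persulfide dioxygenase, fell by 1.11 (SE 0.28, adjusted p = 0.0189), a call lost in a test against a minimum fold of 1.2 (adjusted p = 0.0972). The member Cdo1, the cysteine dioxygenase, fell by 0.52 (SE 0.10, adjusted p = 0.00368) and was named after its value was seen. Its call was lost in the model with the clock score (-0.48, adjusted p = 0.102) and against the same minimum fold (adjusted p = 0.1375). Cbs, which makes cystathionine, differed by -0.55 ± 0.19 and did not pass (adjusted p = 0.0622).

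**Figure D4:**
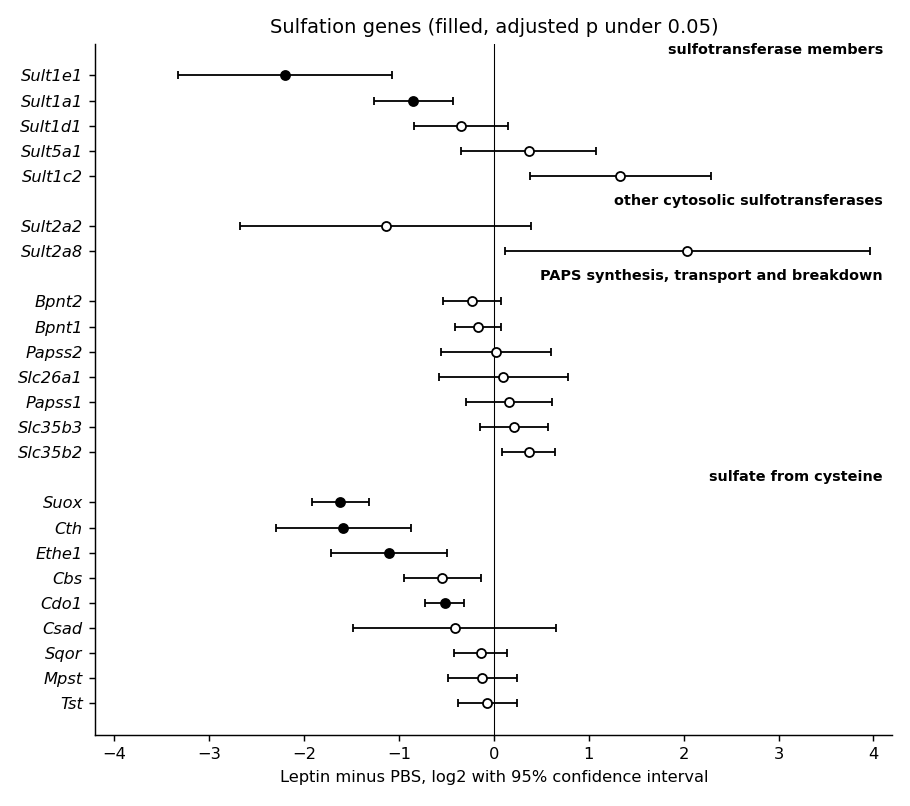
Log2 difference, leptin minus PBS, with 95% confidence intervals for the tested sulfotransferases and for genes of PAPS and sulfate supply; filled circles have an adjusted p under 0.05. The called genes, Sult1e1, Sult1a1, Suox, Cth, Ethe1 and Cdo1, all lie below 0, and no PAPS gene is filled.

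Of 12 tested Golgi sulfotransferases 2 were called, a share equal to the 16.7% over all genes. Tpst1, which sulfates protein tyrosines, rose (0.63 ± 0.14, adjusted p = 0.00901), and Chst13, a chondroitin sulfotransferase, fell (-0.88 ± 0.21, adjusted p = 0.0147), with detection on 2 leptin arrays and 6 PBS arrays. Both calls were lost in the model with the clock score (Tpst1 0.55, adjusted p = 0.186; Chst13 -0.84, adjusted p = 0.192). Of 7 tested sulfatases, which remove sulfate, 2 fell and none rose, where 8.4% of all genes fell. Sulf2, which trims heparan sulfate, differed by -0.53 ± 0.14 (adjusted p = 0.0187), a call lost with the authors' p-values (adjusted p = 0.0594). It was also lost with the clock score, where the difference was not smaller but the SE was larger (-0.68 ± 0.24, adjusted p = 0.098). Arsg, a lysosomal sulfatase, differed by -0.77 ± 0.22 (adjusted p = 0.031), and removing leptin 5, PBS 1, PBS 4 or PBS 5 ended the call (adjusted p = 0.0512, 0.0596, 0.0503 and 0.065).

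Glucuronidation, the conjugation route that shares many substrates with sulfation, was tested through 15 genes, of which 2 fell, beside 8.4% of all genes, and the median was -0.20. They were Ugt3a1 (-0.88 ± 0.26, adjusted p = 0.0316) and Ugt3a2 (-0.33 ± 0.11, adjusted p = 0.0454). Leaving out 1 array ended the first call for leptin 1, leptin 3, PBS 2 or PBS 6, and the second for each array except PBS 1 and leptin 6. In the probe fit 2 of 3 kept probes of Ugt1a6a and 2 of 6 of Ugt1a10 were also called lower, although neither gene passed by its brightest probe. Among 14 tested genes of steroid and thyroid hormone metabolism, 3 rose and 2 fell, where 8.31% of all genes rose and 8.4% fell. Hsd17b6 rose (1.54 ± 0.18, adjusted p = 0.000244), as did Hsd17b2 (1.14 ± 0.27, adjusted p = 0.0132), a dehydrogenase that turns estradiol into estrone, and Hsd3b2 (0.52 ± 0.15, adjusted p = 0.0318). The call of Hsd17b2 was lost with the clock score (0.14, adjusted p = 0.846), and that of Hsd3b2 without leptin 2, 3 or 5 or PBS 2 or 5 (adjusted p 0.0549 to 0.0679). The members that fell, Hsd17b4 (-0.41 ± 0.13, adjusted p = 0.0497) and Hsd17b11 (-0.48 ± 0.15, adjusted p = 0.0494), were named after their values were seen, and each lost its call under 18 of 29 alternatives. Of 3 kept probes of Hsd17b11, 1 was called lower in the probe fit.

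Of 15 tested transcription factors known to act on sulfotransferase genes, 3 fell and 0 rose (median -0.08), where 8.4% of all genes fell. Nr3c1, Ahr and Stat5b, also on this list, were detected on no array. Nfe2l2, the antioxidant regulator NRF2, differed by -0.82 ± 0.22 (adjusted p = 0.0212) and did not pass in the model with the clock score (-0.42, adjusted p = 0.522). Rora, a nuclear receptor of the clock and of lipid metabolism, differed by -0.46 ± 0.13 (adjusted p = 0.0255), and the highest adjusted p with 1 array left out was 0.055, without PBS 6; leaving out leptin 2, leptin 5 or PBS 4 ended the call too. Foxa2 differed by -0.76 ± 0.23 (adjusted p = 0.0366), and was called in only 3 of the 12 fits that left out 1 array, those without leptin 2, leptin 3 or PBS 5. The drug receptors Nr1i3 (CAR) and Nr1i2 (PXR) did not pass, at -0.43 ± 0.18 (adjusted p = 0.109) and -0.08 ± 0.18 (adjusted p = 0.811), though 1 of 4 kept probes of Nr1i3 was called higher. The estrogen receptor Esr1 differed by 0.35 ± 0.22 (adjusted p = 0.288).

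Lists of genes with a known sex bias in mouse liver were read beside the sulfotransferases, because Sult2a2 and Sult3a1 belong to the female-biased kind. Of 10 tested female-biased genes 2 fell and 1 rose (median -0.69), and of 15 male-biased genes 3 rose and 0 fell (median 0.41), beside 8.4% of all genes lower and 8.31% higher. Serpina12, the male-biased gene for vaspin, differed by 3.75 ± 0.53 (adjusted p = 0.000777) and Cyp2b9, a female-biased cytochrome P450, by -3.18 ± 0.69 (adjusted p = 0.00875). The Cyp2b9 call was lost in the model with the clock score, where the difference was similar and the SE larger (-3.10 ± 1.25, adjusted p = 0.14). Acot3, the other female-biased gene that fell (-2.19 ± 0.64, adjusted p = 0.0328), was called in only 5 of the 12 fits that left out 1 array. Abcd2, the female-biased gene that rose, and the male-biased Nudt7 and Cyp2u1 did not pass in the model with the clock score. There Abcd2 went from 0.71 ± 0.18 to 0.54 ± 0.33 (adjusted p = 0.332), and Nudt7 from 1.82 ± 0.44 to 0.26 ± 0.59 (adjusted p = 0.831). Cyp2u1 went from 0.76 ± 0.20 to 0.78 ± 0.37 (adjusted p = 0.204), so its SE grew while its difference did not shrink. Abcd2 and Cyp2u1 entered the test through the leptin group, with detection on 5 and 4 leptin arrays and on 0 and 1 PBS arrays. The sex of the samples is not in the labels, and its part in the sulfotransferase values was not tested.

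Markers of other cells moved in part with the groups. Of 7 tested Kupffer cell and macrophage markers 3 rose, where 8.31% of all genes did, with a mean level of 8.97 to 10.82 on leptin arrays and 8.49 to 9.84 on PBS arrays. One of the 3, Timd4, was called in only 4 of the 12 fits that left out 1 array. Of 7 lymphocyte markers on the array 3 were tested, with a mean level of 5.53 to 6.67 with leptin and 4.76 to 5.04 with PBS, and Cd8a, Cd4 and Ms4a1 were detected on no array. These 3, Cd3d, Cd3e and Cd79b, were detected on 6, 5 and 6 leptin arrays and on 3, 0 and 1 PBS arrays, so Cd3e and Cd79b entered the test through the leptin group, and no count of calls is read from this list. Of 7 endothelial markers 2 rose and of 7 stellate cell markers 1 rose, beside 8.31% of all genes, and of 3 cholangiocyte markers none passed. In the probe fit 1 kept probe each of Stab1, Pecam1 and Fcgr2b was called higher, although these genes did not pass by their brightest probe. Of 4 kept probes of Acta2, the stellate cell marker that rose, 1 was called higher. The part of these other cells in the sulfotransferase differences was not tested. Adipocyte markers, of interest because fat also transcribes Sult1e1, were all undetected (5 of 5), as were the 8 kidney and intestine markers. Of 7 pancreas markers on the array 3 were tested, and Cpa1, Cpb1, Ctrb1 and Ins2 were detected on no array. Of these 3, 1 rose and 1 fell, with a mean level of 10.73 to 11.75 with leptin and 9.44 to 10.63 with PBS. That mean is raised by Amy2a5, which fell (13.12 with leptin and 13.60 with PBS), while Cela2a, which rose, averaged 10.42 and 7.85.

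Pericentral and periportal hepatocyte markers, which mark the ends of the liver lobule, were tested too. Of 9 pericentral markers 2 fell and none rose, led by Oat (-1.22 ± 0.20, adjusted p = 0.00159). Of 7 periportal markers 3 fell and 1 rose, led by Pck1 (-1.19 ± 0.14, adjusted p = 0.000377). Over all genes 8.4% fell and 8.31% rose. Of 2 kept probes of Hal, a periportal marker that fell, 1 was called lower in the probe fit.

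Tested genes were also ranked by the likeness of their pattern to that of Sult1e1. After group means were subtracted, Sult2a2 had the highest Pearson correlation with Sult1e1 of all tested genes (r = 0.912 over 12 arrays), followed by Nap1l1 (0.909), Gnptg (0.899), Dcaf4 (0.892) and Eif1b (0.891). The lowest were Npepl1 (-0.954), Igfals (-0.936), Pkdcc (-0.932), Mug-ps1 (-0.931) and Fcgrt (-0.917). Igfals encodes the acid-labile subunit that carries IGF-1 in blood and is known to be induced by growth hormone. It was 11.64 ± 0.44 with leptin and 11.06 ± 0.41 with PBS, a difference of 0.59 ± 0.22 (SE, adjusted p = 0.0858). Of these 10 genes Dcaf4 alone passed between the groups (-0.82 ± 0.16, adjusted p = 0.00507), where 16.7% of all genes tested did. Dcaf4 did not pass with the clock score (-0.27, adjusted p = 0.5). These correlations are the extremes of 8818 genes over 12 arrays, and the part of leptin 4 and PBS 3 in them was not tested. Sult1e1 and Sult2a2 each passed detection on only 2 leptin arrays, so most of their leptin values lay near background. Sult2a2 on leptin 4 is also the outlier flagged below, and its r was barely above that of Nap1l1, which is not a sulfotransferase.

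**Figure D5:**
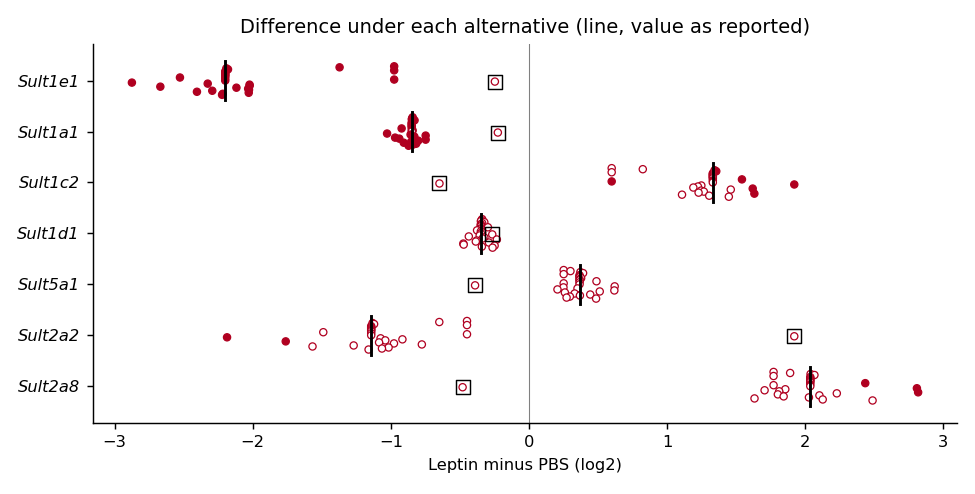
Log2 difference, leptin minus PBS, of each tested sulfotransferase under 29 alternative settings; filled points have an adjusted p under 0.05, black lines are the values as reported and squares mark the model with the clock score. Sult1e1 stays between -2.88 and -0.98 in all settings but that one, where it is -0.25.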

How the data were processed

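Mouse liver RNA was hybridized to Illumina Mouse-6 V2 BeadChips as biotinylated cRNA, per the labels' protocols. The authors' deposited table holds an intensity and a detection p-value for each probe on each array, per the file headers. All 12 arrays have the same distribution of signals there, with no background subtracted (lowest value 95.9), and the step that did this is not recorded in the sources used. The authors' deposited log2 values in the series matrix equal log2 of these signals. A further deposited table by the authors gives a Cyber-T p-value and a log2 difference for each probe, with a rank and a direction class.

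Of 45281 probes, 34885 had 1 symbol in the platform annotation, 18 several and 10378 none; 34807 symbols were found by gene identifier in RefSeq GRCm38.p6. The array has no stated build, so only RefSeq promoter coordinates are printed. Signals went through limma's neqc (offset 16), which understates the change of dim genes. Probes with a detection p under 0.01 on at least 3 arrays were kept (15062), and each gene was taken as its brightest kept probe (8819 genes). Groups were compared with limma (two-sided, Benjamini-Hochberg), and the fit was tested on simulated data. The members and lists were chosen with earlier results of these data known, so the counts over a list are given as description only. Named were all members, tested other sulfotransferases and PAPS genes, up to 3 members of each other list, and the 5 genes most and least like Sult1e1. No slide was recorded, so no batch was tested. Tools were R 4.3.3 and limma 3.58.1. The number of arrays limits the precision.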

Additional observations from a re-analysis of the deposited data

Results flagged for a closer look

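Of 18 sets of 6 arrays, that is 9 sulfotransferase probes in each group, 1 held an array far from the rest by Dixon's gap test, which chance alone does in about 1 set in 20. It was Sult2a2 on leptin 4, at 8.67, while the other leptin arrays lay between 4.44 and 5.29 and the PBS arrays between 4.59 and 8.55. The gap was 0.8 of the group's range, above Dixon's critical value for 6 samples. On the same array Sult1e1 was 7.56, Sult1c2 5.53, Sult5a1 6.10 and Sult2a8 6.31, each on the far side of the PBS mean from the other leptin arrays as a group.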

How the results depend on the processing

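Sult1e1 stayed lower and past the threshold in 28 of 29 alternatives and Sult1a1 in 27. Alternatives covered background correction, normalization, the deposited values, detection filters, the probe taken for a gene, variance models, weighted arrays, the authors' p-values and left-out arrays. The exceptions were the model with the clock score, with -0.25 for Sult1e1 and -0.22 for Sult1a1, and, for Sult1a1, a test against a minimum fold of 1.2 (adjusted p = 0.0883). The deposited log2 signals and the series matrix values are the same numbers, so 2 of the 29 alternatives give 1 result. The deposited signals already share the same distribution on every array. The normalization settings therefore start from equalized data and can show little about dependence on that step. A change of detection filter leaves the Sult1e1 difference itself unchanged and can alter only its adjusted p. Genes called, 1474, became 285 with the minimum fold and 641 with the clock score. Member genes called, 2, became 1 and 0 under these settings, and member probes called, 2, became 1 and 0, and 1 with no filter on dim probes. Leaving out 1 array gave 1053 to 1546 genes, 2 to 3 member genes and 2 to 3 member probes. Member genes called were 3 also with cyclic loess, array weights, the authors' p-values and without both PBS 3 and leptin 4. The model with the clock score turned the sign of Sult1c2 (-0.65), Sult5a1 (-0.39), Sult2a2 (1.92), Sult2a8 (-0.48), Papss1 (-0.0078), Papss2 (-0.88), Slc26a1 (-1.28), Dbp (-0.068), Nap1l1 (0.29), Fcgrt (-0.25), Mug-ps1 (-0.71), Pkdcc (-0.042), Igfals (-0.32) and Npepl1 (-0.17). The cause was not tested, and since Dbp is part of the score, its own change there follows from the model. The mean over kept probes turned Papss2 to -0.041. With 1 array left out, Papss2 ran from -0.15 to 0.15 and Slc26a1 from -0.062 to 0.35.

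With the replicate number as a block (replicate block), 1384 genes passed, 3 of them members, as Sult1c2 then passed (1.33, adjusted p = 0.0105), and Sult2a8, Pkdcc and Igfals also passed (adjusted p = 0.0378, 0.0355 and 0.034). Arsg, Ugt3a2, Hsd3b2 and Timd4 lost their calls (adjusted p = 0.0625, 0.0693, 0.0736 and 0.0633). Correlations of same-numbered arrays were mixed: they ran from -0.317 to 0.456, 3 of 6 were over 0.1, and 4 of 12 arrays correlated best with their own number, so not every pair was over 0.1 and the numbers were not taken as pairs. Dim probes limit Sult1e1, Sult1c2 and Sult2a2, which were at background on 4, 3 and 5 arrays, and no level can be given for Sult1b1 and Sult3a1.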
